A study of Mus musculus with 95 samples.

Results

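The mitochondrially encoded genes are the 37 genes whose symbol begins with mt-, out of 55471 features in the count table of a nucleus accumbens study in mice. They comprise 13 mRNA genes, 2 rRNA genes and 22 tRNA genes, and all 37 were found in the table by their Ensembl identifiers. All mice, controls included, carried the Aldh1l1-EGFP/Rpl10a transgene of line JD130Htz on a B6;FVB background, in which regulatory sequence of the astrocyte gene Aldh1l1 drives an EGFP-tagged cytosolic ribosomal protein, Rpl10a. The IP fraction is RNA that came down with the tagged ribosomes (translating ribosome affinity purification), and the input fraction is an aliquot of the same tissue taken before the purification. Dependent mice went through 5 rounds of CIE (chronic intermittent ethanol) together with 2BC drinking (2-bottle choice), non-dependent mice had 2BC drinking alone, and naive mice had no ethanol. The 46 IP libraries came from 18 dependent, 13 non-dependent and 15 naive mice, and the 49 input libraries from 18 dependent, 15 non-dependent and 16 naive mice. Each mouse carries 1 of 6 batch letters (C, G, I, J, K and L) and 46 mice have both libraries. A single dependent female makes up batch C and another batch G, naive mice are missing from batch I, and non-dependent mice are missing from batch L.

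The mitochondrial genome is a small circular DNA that is transcribed inside the mitochondrion from both strands into long precursors. These precursors are cut, mostly at the tRNAs that punctuate them, into rRNAs, tRNAs and the mRNAs of subunits of respiratory complexes I, III, IV and of the ATP synthase. The mRNAs are translated by mitochondrial ribosomes, whose proteins, like most respiratory subunits, are encoded in the nucleus and made on cytosolic ribosomes. Rpl10a is a protein of the cytosolic large ribosomal subunit, so mitochondrial mRNAs are not translated on the tagged ribosomes. Fragments of mitochondrial DNA are also present in the nuclear chromosomes, where long exact copies make short reads ambiguous.

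Of the 13 mRNA genes, mt-Nd1, mt-Nd2, mt-Nd3, mt-Nd4, mt-Nd4l, mt-Nd5 and mt-Nd6 encode subunits of complex I, mt-Cytb encodes cytochrome b of complex III, mt-Co1, mt-Co2 and mt-Co3 encode the core subunits of complex IV, and mt-Atp6 and mt-Atp8 encode membrane subunits of the ATP synthase. mt-Rnr1 and mt-Rnr2 are the small and large mitochondrial rRNAs. On the GRCm38 build, 28 genes lie on the plus strand of the mitochondrial chromosome, while mt-Nd6 and 8 tRNA genes lie on the minus strand. mt-Atp8 overlaps mt-Atp6, and mt-Nd4l overlaps mt-Nd4, which matters because a read in the shared bases belongs to both genes. The ends of mt-Nd5 and mt-Nd6 overlap on opposite strands, and without strand their reads there cannot be told apart, nor can reads of mt-Nd6 from those of plus-strand RNA opposite it. The sequences below, credited to GENCODE release M21, show the shared bases in capitals, where the capitals begin with the start codon of the downstream gene.
mt-Atp8/mt-Atp6 overlap, chrM:7912-7984, plus strand: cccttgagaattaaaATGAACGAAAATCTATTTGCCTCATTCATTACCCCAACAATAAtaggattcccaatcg
mt-Nd4l/mt-Nd4 overlap, chrM:10152-10188, plus strand: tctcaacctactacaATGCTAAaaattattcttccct
The first overlap holds 43 bases of the 204-base mt-Atp8, and the second holds 7 bases.

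Exact copies in annotated transcripts outside the mitochondrial genome bear on 10 of the 37 genes. A search of all annotated transcripts for runs of 50 bases identical to an mt- gene found 15 features on nuclear chromosomes, most of them unprocessed pseudogenes in clusters on chromosomes 1 and 2. These copies cover every such run of mt-Co2, 99.9% of those of mt-Co3, 99.5% of mt-Atp6, 98.8% of mt-Nd4l and 98.0% of mt-Nd3. The shares were 62.2% for mt-Nd4, 51.1% for mt-Co1, 8.19% for mt-Nd2, 7.61% for mt-Nd5 and 1.04% for mt-Rnr2. No run of mt-Rnr1, mt-Nd1, mt-Nd6, mt-Cytb, mt-Atp8 or any tRNA gene was found in an annotated transcript. Unannotated nuclear sequence, such as that between the features of a cluster, was not searched, so these genes may be copied there. Gm10925 (chr1:24613974-24614651, minus strand) has 678 of 678 aligned bases identical to mt-Atp6, and Gm28438 has 344 of 345 identical to mt-Nd3. The single difference is T3C, counted from 1 at the 5′ end of mt-Nd3, and stands in capitals in the first bases of both, which are shown because no other base of the copy tells the pair apart.
mt-Nd3: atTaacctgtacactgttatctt
Gm28438: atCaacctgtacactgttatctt
How the counting treated reads with several matches is not given in the sources used here.

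Total counts ranged from 14314236 to 27146790 in IP libraries and from 12803108 to 23948193 in input libraries. The labels were checked against cell type markers: all 15 astrocyte markers were higher in IP than in input (median log2 fold change 3.10), and all 18 neuron markers were lower (median -1.30). Their summed level was 25413 to 33070 CPM (a gene's counts per 1000000 counts of its library) in IP and 3078 to 4739 CPM in input for astrocytes, and 3425 to 5996 CPM in IP and 8258 to 15631 CPM in input for neurons, so neuronal RNA remained in IP. Oligodendrocyte (9 of 11), microglia (11 of 11) and endothelial (8 of 8) markers were also mostly lower in IP, with medians of -1.36, -1.25 and -1.02. Of all genes tested, 38.5% were higher and 45.4% lower in IP. No marker of these lists was at 0 in all libraries of a fraction. In 45 of 46 mice the IP and input libraries of a mouse correlated over 0.1 after group means were removed (median 0.641 over 9509 genes). The remaining mouse, a non-dependent male of batch K, had a correlation of -0.327, and leaving it out changed no call of a mitochondrial gene in the comparisons given here.

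Mitochondrial transcripts were scarce in IP. Their share of a library's counts was 0.486% to 2.17% in IP (median 0.794%, 46 libraries), against 6.85% to 17.9% in input (median 8.77%, 49 libraries), and the fractions did not overlap. At this depth counting error was small: the lowest IP share had a 95% Wilson interval of 0.483% to 0.489%, and the lowest input share 6.84% to 6.87% (these intervals cover counting error only). The log2 ratio of IP over input, taken within each mouse over all mt- counts, averaged -3.64 ± 0.33 (SD, n = 46 mice), a 12.5-fold lower level in IP, and ran from -4.45 to -2.73. It was -3.67 ± 0.28 for the mRNAs and -3.64 ± 0.43 for the rRNAs. Without the 2 rRNA genes the median share was 0.394% in IP and 4.91% in input.

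The 16 genes with counts in every library were the 13 mRNAs, both rRNAs and mt-Tp, and these also passed the filter on low counts. The other 21 members did not, 19 of them with a count in some library. All 16 were lower in IP in the edgeR quasi-likelihood test with the mouse as a block (adjusted p at most 3.21e-41, that of mt-Nd4l, Benjamini-Hochberg over 17191 genes), and each was lower in IP in 46 of 46 mice. Of all genes tested, 45.4% were lower and 38.5% higher in IP, so a call alone was common. Their median log2 fold change was -3.55, against -0.08 over all genes tested, and 37 genes lay at or below the least depleted member. These 37 were the 16 members, 13 of the nuclear copies and 8 other genes. The lowest of the 8 were Slamf1 (-4.58), AC121802.1 (-4.24) and Bc1 (-4.09).

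The genes were not depleted to the same degree. mt-Atp6 had the lowest ratio, with 17.3 to 75.7 CPM in IP (median 40.0) and 451 to 1458 CPM in input (median 716), and IP over input was fitted at -4.20 ± 0.06 on the log2 scale (SE, adjusted p = 7.00e-55). mt-Cytb had 660 to 1640 CPM in IP (median 924) and 10881 to 21400 CPM in input (median 14410), and IP over input was fitted at -3.80 ± 0.05 on the log2 scale (adjusted p = 1.82e-59). At the other end, mt-Nd5 had 242 to 867 CPM in IP (median 388) and 2379 to 4662 CPM in input (median 3023), and IP over input was fitted at -2.92 ± 0.06 on the log2 scale (adjusted p = 3.54e-47). In none of these 3 genes did the fractions overlap, but how often this held over all genes was not counted.

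mt-Co1, the catalytic subunit of complex IV, had 463 to 1392 CPM in IP (median 814) and 4103 to 8840 CPM in input (median 6907), and IP over input was fitted at -2.98 ± 0.05 on the log2 scale (adjusted p = 2.68e-50). mt-Nd6, the only mRNA of the minus strand, had 98.6 to 407 CPM in IP (median 170) and 937 to 2979 CPM in input (median 1409), and IP over input was fitted at -3.02 ± 0.07 on the log2 scale (adjusted p = 2.12e-45). The remaining 8 mRNAs lay between -3.74 (mt-Nd4) and -3.42 (mt-Nd4l), with mt-Co2 at -3.71, mt-Nd1 at -3.69, mt-Atp8 at -3.62, mt-Co3 at -3.59, mt-Nd2 at -3.57 and mt-Nd3 at -3.53. Over all mice, mt-Nd5, mt-Co1 and mt-Nd6 thus formed a less depleted set in the plot of IP over input by gene. The set did not hold in every batch. In batch J the mean within-mouse ratio of mt-Rnr1 (-3.12) lay above those of mt-Nd5 (-3.22), mt-Co1 (-3.28) and mt-Nd6 (-3.36). In batch L those of mt-Rnr1 (-3.19) and mt-Nd4l (-3.36) lay above that of mt-Co1 (-3.38).

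**Figure D1:**
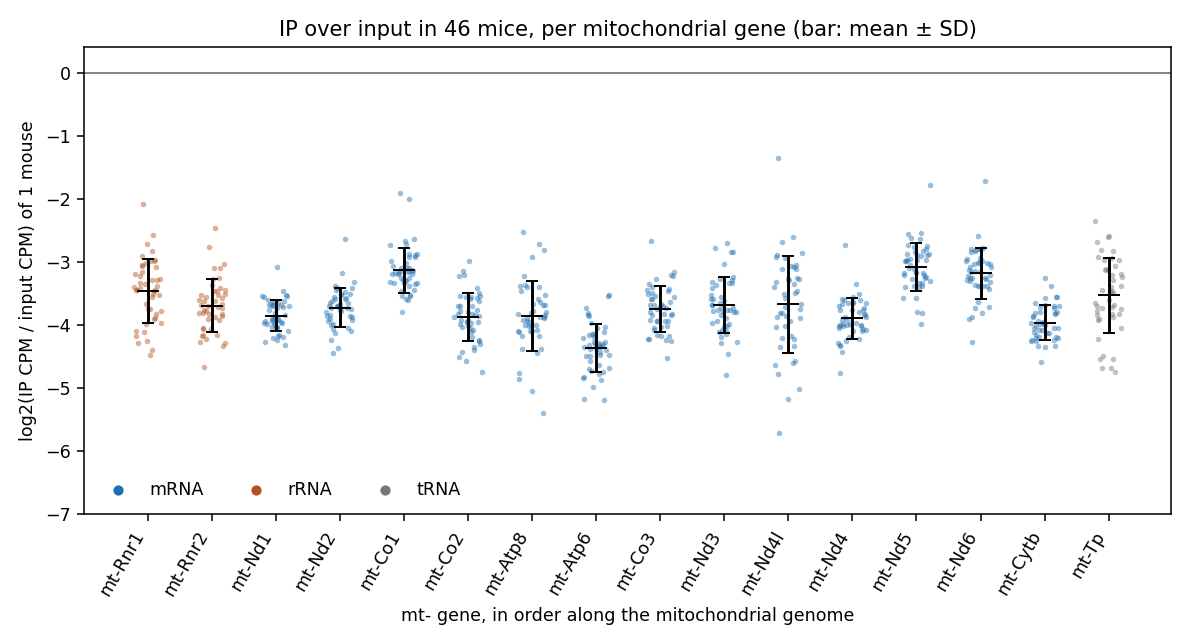
Log2 of IP CPM over input CPM (vertical axis) for the 16 mt- genes with counts in every library, in order along the mitochondrial genome. Each point is 1 of 46 mice and bars give mean ± SD; every point lies below 0, mt-Atp6 is lowest (mean -4.36) and mt-Nd5, mt-Co1 and mt-Nd6 are highest (means -3.08, -3.13 and -3.18).

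The order held in 46 of 46 mice for some genes far apart, while of neighbours in the order only mt-Atp6 and mt-Cytb kept theirs in more than 31 of 46 mice (mt-Atp6 the lower in 42, by 0.40 ± 0.31). On the within-mouse scale, mt-Cytb minus mt-Nd5 was -0.89 ± 0.23 (SD, n = 46), with mt-Cytb the lower in 46 of 46 mice, and mt-Nd1 minus mt-Co1 was -0.72 ± 0.26, again with the first lower in 46 of 46 mice. By contrast mt-Nd5 and mt-Nd6, which lie on opposite strands, differed by 0.10 ± 0.19, and mt-Nd5 was the lower in 14 of 46 mice. Their direction was not the same in every batch: mt-Nd5 minus mt-Nd6 was 0.14 ± 0.15 in batch I, 0.14 ± 0.13 in J and 0.27 ± 0.20 in K, but -0.13 ± 0.12 in L, where mt-Nd5 was the lower in 8 of 10 mice. For the overlapping pairs the mean difference was smaller than the SD over all mice, which is not the error of that mean. mt-Atp6 minus mt-Atp8 was -0.50 ± 0.57 (mt-Atp6 lower in 39 of 46 mice), from -0.17 ± 0.41 in batch I to -1.02 ± 0.61 in batch J. mt-Nd4 minus mt-Nd4l was -0.22 ± 0.57 (mt-Nd4 lower in 30 of 46 mice). mt-Atp8 and mt-Nd4l had few counts in IP, with means of 2.06 and 1.39 CPM.

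Per kilobase of gene, the levels spanned a wide range that had nearly the same order in both fractions. mt-Rnr2 was highest, at 2313 ± 1238 CPM per kb in IP (SD, n = 46) and 28469 ± 12672 in input (n = 49), followed by mt-Rnr1 at 1342 ± 900 in IP and 13282 ± 6563 in input. Of the mRNAs mt-Cytb was highest, at 852 ± 221 CPM per kb in IP and 12970 ± 2288 in input, and mt-Nd1 came next, at 589 ± 154 in IP and 8279 ± 1589 in input. In input, mt-Nd4, mt-Nd2, mt-Co1 and mt-Nd6 followed at 5905 ± 1688, 5479 ± 1919, 4360 ± 802 and 3258 ± 1109 CPM per kb, and neighbours among these differed by less than the larger of their SDs. The order differed for mt-Nd2 and mt-Nd4 (426 ± 165 and 409 ± 147 in IP), for mt-Co1, which stood above both in IP (511 ± 122) and below both in input, and for mt-Atp6, which stood below mt-Co2 in IP (61.0 ± 22.6 and 84.5 ± 37.2) but level with it in input (1236 ± 487 and 1206 ± 527).

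The 5 genes that are copied nearly whole elsewhere had low levels per length. In input mt-Co3 had 1260 ± 528, mt-Nd3 284 ± 141 and mt-Nd4l 54.8 ± 22.1 CPM per kb, beside the values of mt-Atp6 and mt-Co2 above. mt-Atp8, with no run of 50 bases copied in an annotated transcript, was also low, at 10.1 ± 6.77 in IP and 128 ± 51.3 in input, or 12.8 and 163 per kb of the bases it does not share with mt-Atp6. Its neighbours mt-Co2 and mt-Atp6 have copies close together on chromosome 1, and unannotated bases between those were not searched. With the counts of the copies added, mt-Co2 was at 196 in IP and 2766 in input, and mt-Atp6 at 128 in IP and 2657 in input, still under mt-Co1 (600 in IP and 5129 in input). How reads that match several places were counted moves these levels, so they do not rank the transcripts.

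The 2 rRNAs, the RNA cores of the mitochondrial ribosome, made up 51.8 ± 9.01% of mt- counts in IP (SD, n = 46) and 51.2 ± 6.87% in input (n = 49). mt-Rnr2 had 1600 to 10606 CPM in IP (median 3104) and 22465 to 97084 CPM in input (median 34898), and IP over input was fitted at -3.54 ± 0.07 on the log2 scale (adjusted p = 5.40e-49). mt-Rnr1 had 362 to 4238 CPM in IP (median 1012) and 5524 to 26464 CPM in input (median 9234), and IP over input was fitted at -3.30 ± 0.08 on the log2 scale (adjusted p = 8.08e-45). The fractions did not overlap for either gene, with no count of this over all genes to set beside it. Within mice mt-Rnr2 minus mt-Rnr1 was -0.23 ± 0.23 on the log2 scale, with mt-Rnr2 the lower in 36 of 46. It was the lower in all mice of batches J (-0.37 ± 0.11, 11 mice), K (-0.33 ± 0.09, 9 mice) and L (-0.37 ± 0.17, 10 mice), but in 4 of 14 mice of batch I (0.05 ± 0.15). Summed mRNAs minus summed rRNAs gave -0.03 ± 0.36, with the mRNAs the more depleted in 25 of 46 mice, but the batches went opposite ways. The difference was 0.33 ± 0.22 in batch I (mRNAs more depleted in 1 of 14 mice) and 0.08 ± 0.17 in K (4 of 9), against -0.35 ± 0.32 in J (9 of 11) and -0.27 ± 0.17 in L (10 of 10).

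The tRNAs were nearly absent, apart from 1 gene. mt-Tp, the proline tRNA, held 97.1% of all tRNA counts (27905 of 28728), and its sequence is shown because no other tRNA had a count in every library.
mt-Tp, chrM:15356-15422, minus strand: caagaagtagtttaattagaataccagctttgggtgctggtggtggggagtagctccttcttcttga
It had 1.43 to 5.60 CPM in IP (median 2.65) and 16.5 to 52.8 CPM in input (median 25.2), and IP over input was fitted at -3.34 ± 0.08 on the log2 scale (SE, adjusted p = 9.94e-44). The next 4 tRNA genes by input level, mt-Tn (asparagine), mt-Tq (glutamine), mt-Tc (cysteine) and mt-Te (glutamate), averaged 0.0557, 0.0418, 0.0527 and 0.00505 CPM in IP, against 0.269, 0.231, 0.192 and 0.0272 CPM in input. All 5 lie on the minus strand. Without mt-Tp, the tRNA genes of the minus strand held 735 counts over all libraries and the 14 of the plus strand held 88. Whether the counting used strand is not given. Without strand, reads at a minus-strand tRNA gene cannot be told from those of plus-strand RNA opposite it. mt-Tw and mt-Tk had no count in any library, which in the shallowest IP library allows a level of up to 0.210 CPM. How well RNAs as short as a tRNA were recovered was not tested.

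The nuclear genes of the same respiratory complexes lay close to 0. Of 36 nuclear subunits of complex I, 16 were higher, 9 were lower and 11 did not pass (median log2 fold change 0.03), against a median of -0.08 over all genes. The counts in these lists stand beside 38.5% higher and 45.4% lower of all genes tested. Ndufs1, an iron-sulfur subunit of complex I, was at 0.60 ± 0.03 (SE, adjusted p = 3.78e-26) and Ndufb11 at 0.70 ± 0.05 (adjusted p = 3.60e-20). Of 9 nuclear complex III subunits 7 were higher and 1 lower (median 0.26), with the Rieske iron-sulfur protein Uqcrfs1 at 1.06 ± 0.04. Complex IV had 3 higher and 2 lower of 10 (median 0.05), with Cox5b at -0.51 ± 0.05. The ATP synthase had 9 higher and 1 lower of 14 tested (median 0.15), with Atp5c1, the gamma subunit, at 0.51 ± 0.03 and Atp5g1, a gene of the c subunit, at -0.69 ± 0.05. The lowest value in any of these 4 lists was that of Atp5g1. The highest value of the 16 mitochondrial genes tested, that of mt-Nd5, was -2.92.

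Genes that serve mitochondrial expression from the nucleus were spread around 0 as well. Their counts too stand beside 38.5% higher and 45.4% lower of all genes tested. Of 88 tested genes of the mitochondrial ribosome and its translation factors, 39 were higher and 27 lower (median 0.05), and among 17 genes of mtDNA transcription and replication 6 were higher and 5 lower (median 0.10). Tfam, which packages mtDNA and starts its transcription, was at 0.40 ± 0.05 (adjusted p = 4.07e-12), and the mtDNA nuclease Mgme1 at 1.49 ± 0.08 (adjusted p = 9.81e-25). Among 17 genes of mitochondrial RNA processing and stability 4 were higher and 7 lower (median -0.13), with Hsd17b10, a subunit of mitochondrial RNase P, at 0.92 ± 0.04 and Lrpprc, which stabilises mitochondrial mRNAs, at -0.49 ± 0.05. Of 8 regulators of mitochondrial biogenesis 5 were higher and 3 lower, with the coactivator genes Ppargc1a at 1.15 ± 0.04 and Ppargc1b at -0.82 ± 0.08. Of 11 mitochondrial chaperones and proteases 8 were higher and 2 lower (median 0.52), with the chaperone gene Hspa9 at 0.71 ± 0.04.

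Other lists of RNAs lower in IP, long noncoding RNAs and neuron markers, gave a scale for the mitochondrial values. The oligodendrocyte and microglia markers given above, with medians near that of the neuron markers, are not part of this scale. In a list of 10 long noncoding RNAs all were lower in IP (median -0.99), beside 45.4% of all genes tested. Malat1, the lowest, was at -1.75 ± 0.08 (adjusted p = 5.56e-30) and Meg3 at -1.26 ± 0.05. The compartment and the cell type that hold each of these RNAs were not tested. Neuron markers reached -1.52 at the lowest. The least depleted of the 16 mitochondrial genes tested therefore lay more than 1 log2 unit below the lowest member of both lists. Members that did not pass the filter on low counts are not part of this. Single genes outside these lists, such as Slamf1 (-4.58) and Bc1 (-4.09), lay within or below the range of the members. Cytosolic ribosomal protein genes had a median of -0.27 (6 higher and 61 lower of 77, beside 38.5% and 45.4% of all genes tested).

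**Figure D2:**
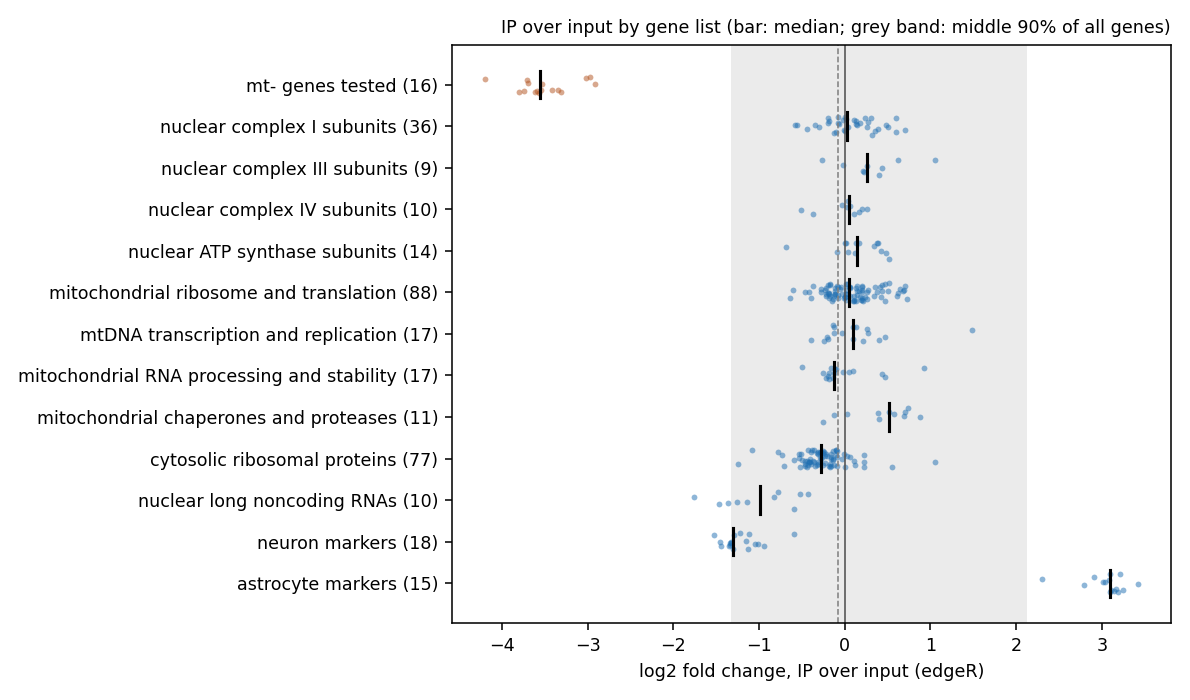
Log2 fold change of IP over input (horizontal axis, edgeR fit over 46 mice) for the genes of each list, with the number tested in brackets; points are genes, bars are medians, and the grey band holds the middle 90% of all genes. The 16 mt- genes (median -3.55) lie left of every other list shown, while the nuclear respiratory subunits surround 0.

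The features that copy mitochondrial sequence were depleted as well. All 15 were lower in IP (edgeR, same fit), beside 45.4% of all genes tested. Gm10925, Gm28437 and Gm28661 are identical to their mt- gene over all aligned bases, so short reads within them fit both places. Their counts are therefore not separate from those of the mt- gene. Gm10925 had 44.9 ± 18.1 CPM in IP (SD, n = 46), against 959 ± 392 CPM in input (n = 49), beside 41.5 ± 15.4 CPM in IP and 842 ± 331 CPM in input for mt-Atp6. Its log2 fold change was -4.29 ± 0.06 (SE), against -4.20 ± 0.06 for mt-Atp6. Gm28437, the copy of mt-Co3, had 65.4 ± 25.5 CPM in IP, against 893 ± 367 CPM in input (log2 fold change -3.64 ± 0.07, against -3.59 ± 0.06 for mt-Co3). Gm28661, the copy of mt-Co2, had 47.1 ± 19.7 CPM in IP, against 709 ± 292 CPM in input (-3.79 ± 0.06, against -3.71 ± 0.06 for mt-Co2). The counts of these 3 copies were 1.07, 0.870 and 0.817 times those of their mt- gene in IP and 1.13, 0.889 and 0.863 times in input (medians over libraries).

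A further 3 copies had fewer counts than the gene they match. Gm29216 and Gm13340, which match parts of mt-Co1, had 80.1 ± 33.9 and 57.2 ± 16.8 CPM in IP and 700 ± 293 and 486 ± 143 CPM in input, and their log2 fold changes of -3.01 ± 0.07 and -2.95 ± 0.06 stood beside -2.98 ± 0.05 for mt-Co1. Gm13341, which matches part of mt-Co2, had 29.1 ± 11.9 CPM in IP, against 358 ± 144 CPM in input (-3.50 ± 0.06). Of these 6 copies, Gm10925 had the lowest fold change and Gm13340 the highest. Adding the counts of all 15 features raised the median mitochondrial share to 0.830% in IP and 9.15% in input.

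**Figure D3:**
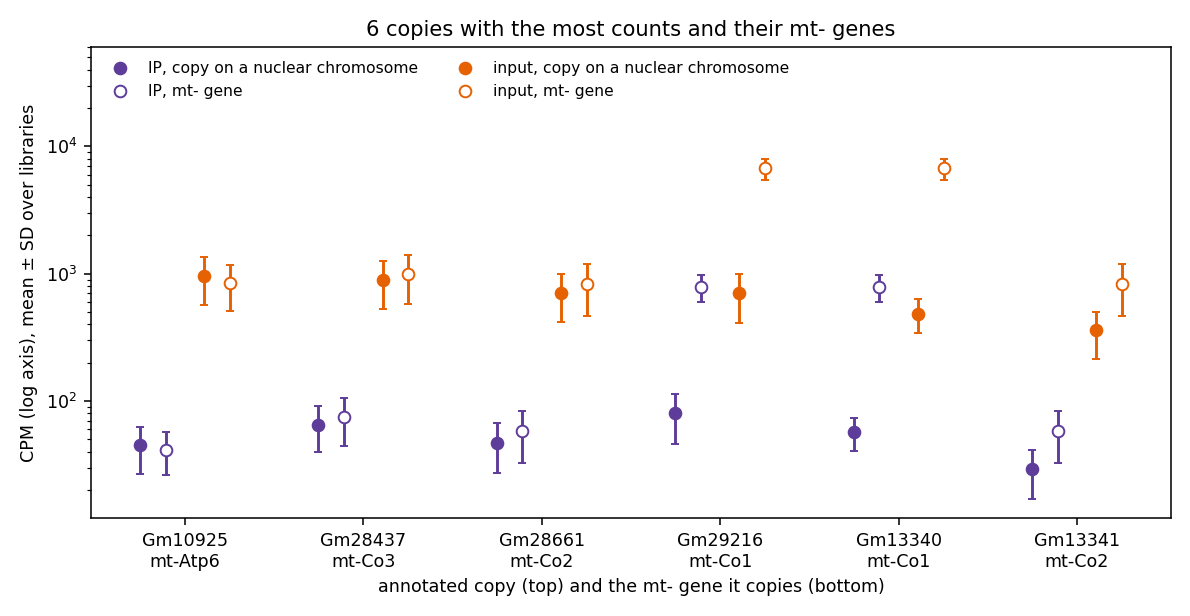
Mean CPM ± SD over libraries (log axis) of the 6 nuclear copies with the most counts (filled) and of the mt- gene each copies (open), in 46 IP and 49 input libraries. Gm10925, Gm28437 and Gm28661 sit at the level of mt-Atp6, mt-Co3 and mt-Co2 in both fractions, and the copies of mt-Co1 well below it. Short reads of the first 3 copies fit the mt- gene equally well.

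The mitochondrial share spread widely over batches. By treatment it averaged 0.809 ± 0.214% in dependent, 0.919 ± 0.389% in non-dependent and 1.01 ± 0.48% in naive IP, and 10.9 ± 3.94%, 10.6 ± 3.08% and 11.1 ± 3.74% in input of the same groups (SD). By batch it averaged in IP 1.32 ± 0.36% in batch J (SD, n = 11) and 1.05 ± 0.28% in batch K (n = 9), against 0.683 ± 0.197% in batch I (n = 14) and 0.622 ± 0.102% in batch L (n = 10). In input it was 14.98 ± 1.83% in batch J (n = 11) and 13.9 ± 2.22% in batch K (n = 9), against 8.25 ± 0.71% in batch I (n = 16) and 7.61 ± 0.71% in batch L (n = 11). The input ranges of batches J (12.03% to 17.9%) and K (11.04% to 17.5%) lay above those of I (7.24% to 10.2%) and L (6.85% to 9.14%) with no overlap. The log2 ratio of all mt- counts was -3.64 ± 0.35 in batch I, -3.53 ± 0.39 in J, -3.76 ± 0.34 in K and -3.62 ± 0.15 in L. The rRNA part of mt- counts also followed batch, with 63.8 ± 3.58% in IP and 58.1 ± 5.82% in input of batch J, against 43.1 ± 3.78% in IP and 49.1 ± 3.32% in input of batch I.

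**Figure D4:**
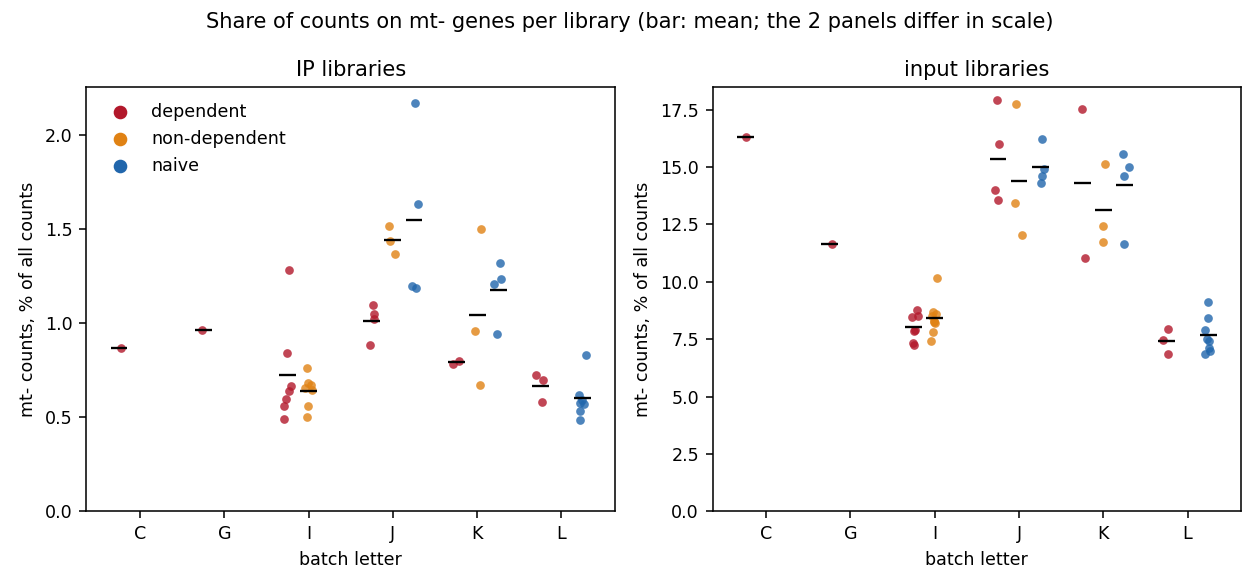
Share of counts on mt- genes (vertical axis, %) in each IP library (left) and input library (right) by batch letter; points are libraries coloured by treatment and bars are means. Batches J and K lie above I and L in input with no overlap, and IP stays at or under 2.17% throughout.

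For single genes the IP-over-input ratio did differ between batches I to L. The test of the 3 batch terms called 5 of 16 genes (edgeR with the mouse as a block, adjusted p at or under 0.05), beside 15% of the 19576 genes tested. mt-Nd6 had the smallest p (adjusted p = 0.00066), with a log2 ratio within mice of -2.89 ± 0.41 in batch I, -3.36 ± 0.37 in J, -3.45 ± 0.35 in K and -3.06 ± 0.12 in L (SD). mt-Nd5 (adjusted p = 0.00241) was at -2.76 ± 0.37 in batch I, -3.22 ± 0.31 in J, -3.18 ± 0.36 in K and -3.19 ± 0.21 in L. mt-Co1 (adjusted p = 0.00336) was at -2.83 ± 0.42 in batch I, -3.28 ± 0.18 in J, -3.10 ± 0.26 in K and -3.38 ± 0.23 in L. The 3 least depleted mRNAs were therefore least depleted in batch I.

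mt-Tp (adjusted p = 0.00526) ran from -3.14 ± 0.42 in batch I to -4.07 ± 0.49 in batch K. mt-Rnr1 (adjusted p = 0.0309) went the other way, with -3.85 ± 0.40 in batch I and -3.12 ± 0.52 in batch J, but it was not called by limma voom, without the filter on low counts or without the mouse block. mt-Nd1, at -3.79 ± 0.31 in batch I, -3.82 ± 0.20 in J, -3.84 ± 0.29 in K and -3.95 ± 0.16 in L, did not pass (adjusted p = 0.542). Neuron markers, summed, had log2 ratios of -1.45 ± 0.13, -1.42 ± 0.11, -1.22 ± 0.19 and -1.55 ± 0.10 in batches I, J, K and L, and their part in the mitochondrial values was not tested.

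No mitochondrial gene passed the test of dependent over naive mice. In IP, 0 of 16 were called by edgeR, beside 5.39% of the 17721 genes tested, and DESeq2 and limma voom also called 0. At an unadjusted p under 0.05 there were 6 of 16, beside 17.5% of all genes. All 16 estimates were below 0, from -0.34 to -0.08 (median -0.21, against 0.00 over all genes). The 4 genes with the smallest p were mt-Cytb, mt-Nd4, mt-Nd1 and mt-Nd2. mt-Cytb had 660 to 1360 CPM in dependent IP (median 883, n = 16) and 660 to 1545 CPM in naive IP (median 976, n = 15), with overlap, and dependent over naive was fitted at -0.26 ± 0.11 on the log2 scale (SE, adjusted p = 0.159). mt-Nd4 had 305 to 901 CPM in dependent IP (median 472) and 350 to 1161 CPM in naive IP (median 664), and dependent over naive was fitted at -0.34 ± 0.14 on the log2 scale (adjusted p = 0.164). mt-Nd1 was at -0.24 ± 0.11 and mt-Nd2 at -0.30 ± 0.13 (adjusted p = 0.215 and 0.216). Without batch I, which has no naive mouse, 2 of 16 passed, mt-Nd4 at -0.43 (adjusted p = 0.0361) and mt-Nd6 at -0.36 (adjusted p = 0.0472). The share of all genes called under that setting is not given here.

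The direction was not the same in every batch. In batch J the share of mt- counts was 0.884% to 1.10% in 4 dependent IP libraries and 1.19% to 2.17% in 4 naive ones, and in batch K 0.786% to 0.802% in 2 dependent and 0.943% to 1.32% in 4 naive ones, in neither case overlapping. In batch L it was 0.582% to 0.723% in 3 dependent and 0.486% to 0.834% in 7 naive IP libraries, which overlapped, and the dependent mean was the higher (0.668 ± 0.076% and 0.602 ± 0.111%). The log2 ratio of IP over input, over all mt- counts, was -3.92 ± 0.16 in dependent and -3.32 ± 0.39 in naive mice of batch J, -4.13 ± 0.45 and -3.60 ± 0.08 in those of batch K, and -3.48 ± 0.07 and -3.68 ± 0.13 in those of batch L. Summed neuron markers had log2 ratios of -1.41 and -1.44 in dependent and naive mice of batch J, -1.45 and -1.17 in batch K and -1.55 and -1.54 in batch L. Their part was not tested.

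In input, 0 of 16 mitochondrial genes were called for dependent over naive mice (edgeR, beside 2.57% of 18166 genes, 2 of 16 at an unadjusted p under 0.05 beside 14.4% of all genes at that threshold, and 0 by DESeq2 or limma voom). The estimates lay between -0.25 and 0.04, with mt-Nd1 at -0.18 ± 0.07 (SE, adjusted p = 0.147), mt-Cytb at -0.18 ± 0.07 (adjusted p = 0.203), mt-Nd4l at -0.25 ± 0.13 (adjusted p = 0.348) and mt-Nd4 at -0.18 ± 0.09 (adjusted p = 0.354). In this bulk tissue fewer cells of a type and less RNA per cell cannot be told apart. The IP-over-input ratio itself was also not called in any of the 16 genes for dependent over naive mice (beside 0.409% of 19576 genes, 1 of 16 at an unadjusted p under 0.05 beside 8.51% of all genes at that threshold, and 0 by limma voom). mt-Nd6 had the smallest p there, at -0.30 ± 0.14 (adjusted p = 0.518).

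Between dependent and non-dependent mice the estimates lay nearer 0. In IP, 0 of 16 genes were called (edgeR, beside 1.78% of genes, 0 of 16 at an unadjusted p under 0.05, and 0 by DESeq2 or limma voom), with estimates from -0.03 to 0.32 and a median of 0.02. mt-Nd4l, at the top, was at 0.32 ± 0.30 and mt-Nd6 at 0.16 ± 0.14 (SE, adjusted p = 0.765 and 0.719). In input 0 of 16 were called (beside 0.363% of genes, 0 at an unadjusted p under 0.05, and 0 by either other tool), and mt-Nd6 had the smallest p, at 0.15 ± 0.09 (adjusted p = 0.804). For the IP-over-input ratio 0 of 16 were called, beside 0.102% of genes, with 0 at an unadjusted p under 0.05 and 0 by limma voom. Standard errors in IP ran from 0.10 for mt-Co1 to 0.30 for mt-Nd4l, which sets the size of a difference that could be seen. In batch I the ratio of all mt- counts was -3.53 ± 0.43 in 7 dependent and -3.75 ± 0.24 in 7 non-dependent mice, in batch J -3.92 ± 0.16 in 4 and -3.30 ± 0.22 in 3, and in batch K -4.13 ± 0.45 in 2 and -3.72 ± 0.39 in 3, so the direction differed between batches here too.

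Non-dependent over naive mice, which stand side by side in batches J and K alone, shares its naive libraries with the first comparison. In IP, 0 of 16 were called (edgeR, beside 0.497% of genes, 6 of 16 at an unadjusted p under 0.05 beside 10.7% of all genes at that threshold, and 0 by DESeq2 or limma voom). All 16 estimates were below 0 (median -0.26), with mt-Nd6 at -0.37 ± 0.15 (SE, adjusted p = 0.342), mt-Nd2 at -0.32 ± 0.15 (adjusted p = 0.403), mt-Nd4 at -0.33 ± 0.15 (adjusted p = 0.412) and mt-Cytb at -0.25 ± 0.12 (adjusted p = 0.433). In input 0 of 16 were called (beside 0.127% of genes, 1 of 16 at an unadjusted p under 0.05 beside 7.44% of all genes at that threshold, and 0 by either other tool). The IP-over-input ratio gave 0 of 16, beside 0% of genes (0 of 19576), with 0 members at an unadjusted p under 0.05 and 0 by limma voom.

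**Figure D5:**
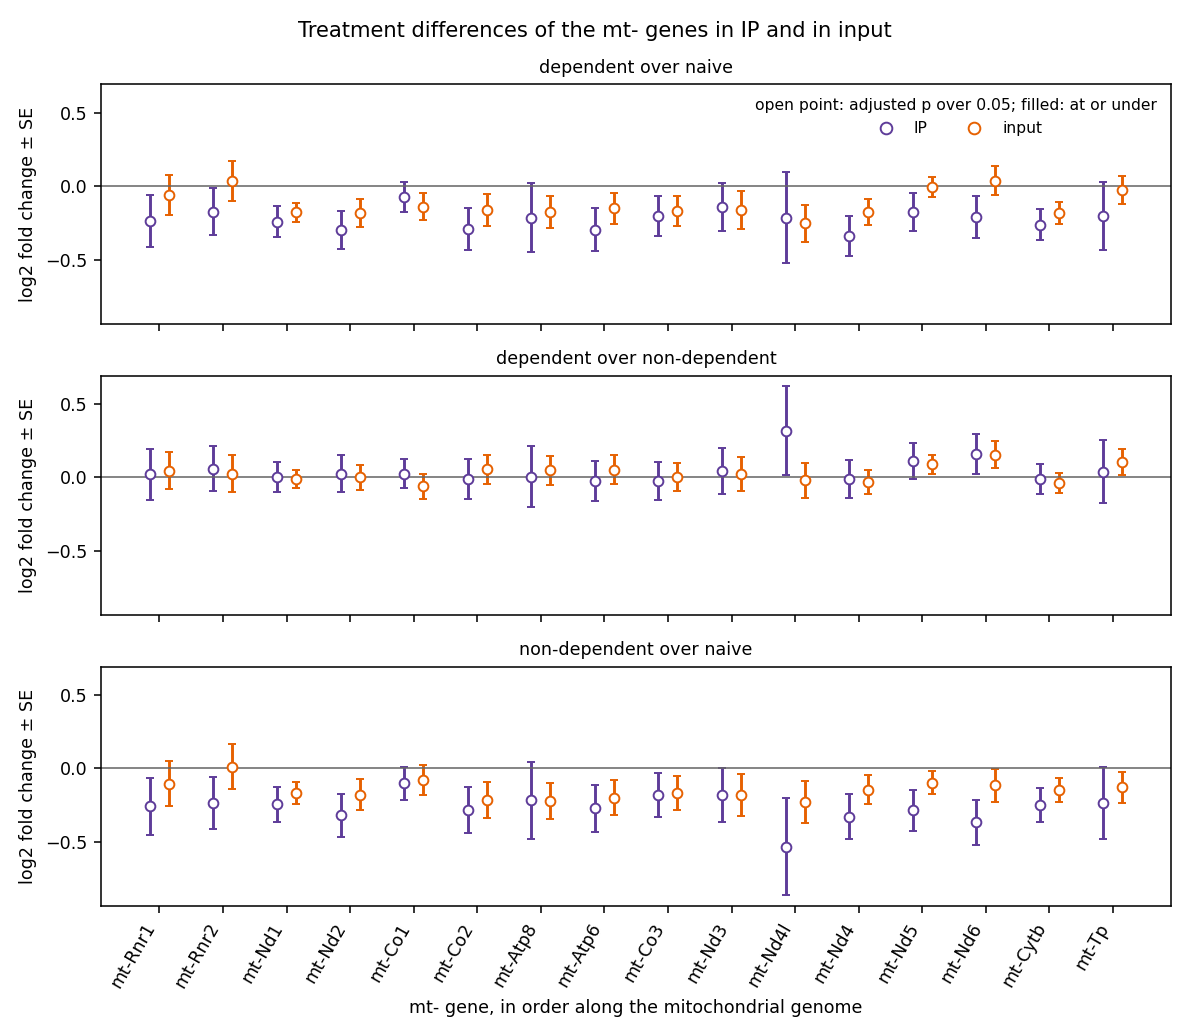
Log2 fold change ± SE (vertical axis, edgeR with a batch term, batches I to L) of the 16 mt- genes in IP and input for the 3 treatment comparisons. All points are open, since none passed at an adjusted p of 0.05, and the IP estimates against naive mice all lie below 0 (medians -0.21 for dependent and -0.26 for non-dependent mice).

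For dependent over naive IP, 5.39% of the 17721 genes tested were called, and the counts in the lists below stand beside that share. The median log2 fold changes were -0.10 for complex I (0 of 36 called), -0.11 for complex III (1 of 9, Uqcrb at -0.29 ± 0.09, adjusted p = 0.047), -0.08 for complex IV (0 of 10) and -0.10 for the ATP synthase (0 of 14), beside 0.00 over all genes. Of 17 genes of mitochondrial RNA processing 1 rose, Fastkd2, at 0.53 ± 0.16 (SE, adjusted p = 0.0476). It was also the only one called for non-dependent over naive IP (0.75 ± 0.18, adjusted p = 0.0356), beside 0.497% of all genes. Fastkd2 is known for its role in the assembly of the mitochondrial large ribosomal subunit. Among 88 genes of the mitochondrial ribosome and its translation 2 rose, Mrps6 (0.39 ± 0.08, adjusted p = 0.00159) and Mrps30 (0.35 ± 0.11, adjusted p = 0.0415), and 1 fell, Mrpl54 (-0.41 ± 0.10, adjusted p = 0.00859). No gene of mtDNA transcription and replication (17) or of biogenesis (8) was called in that comparison. Of the cell type markers, 3 of 15 for astrocytes rose and 1 fell, 1 of 18 for neurons and 1 of 11 for oligodendrocytes fell, and 1 of 8 for endothelial cells rose. None of the 11 microglia markers passed, but all 11 estimates were above 0, from 0.12 to 0.47 (median 0.36), and their summed level was 191 to 791 CPM in dependent IP (median 263) and 199 to 302 CPM in naive IP (median 248). The part of these markers in the mitochondrial values was not tested.

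Males and females did not differ past the threshold in any mitochondrial gene. In IP 0 of 16 were called for male over female mice (edgeR, beside 0.0508% of genes, 9 of 16 at an unadjusted p under 0.05 beside 5.22% of all genes at that threshold, and 0 by DESeq2 or limma voom). The 16 estimates were all below 0 (median -0.22), led by mt-Nd2 at -0.32 ± 0.10 (SE, adjusted p = 0.771), mt-Rnr2 at -0.35 ± 0.12 (adjusted p = 0.798), mt-Nd4 at -0.29 ± 0.11 (adjusted p = 0.798) and mt-Rnr1 at -0.38 ± 0.14 (adjusted p = 0.800). In input 0 of 16 were called (beside 0.0495% of genes, 1 of 16 at an unadjusted p under 0.05 beside 5.20% of all genes at that threshold, and 0 by either other tool), and the median was -0.10. The IP-over-input ratio gave 0 of 16, beside 0% of 19576 genes, with 0 members at an unadjusted p under 0.05 and 0 by limma voom. Over all mt- counts the ratio was -3.73 ± 0.31 in 20 males and -3.58 ± 0.33 in 26 females, which overlapped.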

How the data were processed

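The deposited table holds whole-number counts for each gene and library, not normalized. The submitters' processing notes name STAR 2.7.10b, Trimmomatic 0.39, FastQC 0.11.9 and the GRCm38 build. Which program and annotation gave the counts, and whether it used strand, was not given in the sources used here, so reads of overlapping genes on the 2 strands may not be told apart. The labels' protocols name the Takara SMART-Seq PLUS kit for the libraries. Of 55471 features, 55144 matched a symbol of GENCODE release M21, and the 327 others held 0.0192% of counts.

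Tests used edgeR 4.0.16 (quasi-likelihood) in R 4.3.3 (TMM, filterByExpr with a minimum count of 10 and total of 15, robust fit), with Benjamini-Hochberg adjustment over all genes tested and calls at 0.05. IP and input were paired by mouse, as the labels give it. A check of this pairing found a correlation over 0.1 in 45 of 46 mice (median 0.641). The mouse was a block in the IP-over-input fit (46 mice) and in the fits of its differences (44 mice of batches I to L), where the dispersion was estimated inside glmQLFit. Each fraction on its own was fitted with treatment-by-sex means plus a term for batch. Standard errors came from the F statistic, and CPM and within-mouse ratios from library totals without TMM. Alternatives used DESeq2 1.42.0, limma 3.58.1 (voom), other scalings, no filter and left-out batches. The functions were checked on simulated data with changes of 1.5-fold and more. Every simulated gene had the same dispersion, and no batch or sex effect was put in. The recovery therefore does not give the power in the real data. At 1.5-fold, 65 of 66 changed genes were recovered for IP over input and 40 of 66 for dependent over naive in IP. Of all calls, 7.18% and 6.63% were false in these 2 comparisons. Smaller changes, such as the treatment estimates of the mitochondrial genes, were not simulated. Copies were found as exact runs of 50 bases among annotated transcripts, and unannotated ones were not searched.

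The genes given with full statistics are the 13 mRNAs, the 2 rRNAs and the 5 tRNAs with the highest input level, with the 4 smallest p-values in treatment, sex and batch comparisons. Of other lists up to 4 members with the smallest p and of copies up to 6 by count were eligible. The members and the lists were chosen with earlier results of these data known. Mice are the replicates.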

Additional observations from a re-analysis of the deposited data

Results flagged for a closer look

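Of the results above, those that differed between batches in a test of the difference itself were the IP-over-input ratios of mt-Nd6 (adjusted p = 0.00066), mt-Nd5 (adjusted p = 0.00241), mt-Co1 (adjusted p = 0.00336), mt-Tp (adjusted p = 0.00526) and mt-Rnr1 (adjusted p = 0.0309), by the edgeR test of the 3 batch terms over batches I to L. Batch I had the highest ratio of the 4 batches for mt-Nd6, mt-Nd5, mt-Co1 and mt-Tp and the lowest for mt-Rnr1. The call of mt-Rnr1 was lost with limma voom, without the filter on low counts and without the mouse block, under which the other 4 genes were called. Batch I holds dependent and non-dependent mice only.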

How the results depend on the processing

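All 16 mitochondrial genes stayed lower in IP than in input under every alternative run, and the 224 alternative fold changes of single genes kept their direction and their call. The median over the 16 genes ran from -3.71 (library size alone) to -3.48 (without batch K). Library size alone moved the median of all genes to -0.25, and gave 5288 genes higher and 9369 lower in IP in place of 6623 and 7808. Of 161 counts of mitochondrial genes, 156 stayed within 1.5 times the reported count. Most of these were 0 in both, and those for IP over input were 16 throughout, so they say little about the estimates. With no filter on low counts, 5 genes were called for dependent over naive IP (mt-Nd4, mt-Nd2, mt-Cytb, mt-Rnr1 and mt-Co2, adjusted p from 0.00105 to 0.0492), 3 for non-dependent over naive IP (mt-Nd6, mt-Nd4 and mt-Nd2, 0.00632 to 0.0206) and 4 for male over female IP (mt-Rnr1, mt-Rnr2, mt-Nd2 and mt-Nd4, 1.44e-07 to 0.00163), all below 0. Without batch I, 2 were called for dependent over naive IP, mt-Nd4 and mt-Nd6. DESeq2 size factors gave 9 genes in the batch test, and mt-Rnr1 was not called there by limma voom, without the filter or without the block. The cause of these changes was not tested. For no filter, without batch I and DESeq2 size factors, the share of all genes called is not given here. Whether the members changed beyond a wider rise in calls was therefore not assessed here. With no replicate block for the mouse, 16 genes were lower in IP (log2 fold changes -4.19 to -2.89), the batch test called 4 mitochondrial genes and 910 of all genes in place of 2940, and the treatment and sex differences of the ratio called 0 mitochondrial genes (all genes 12 in place of 80 for dependent over naive and 0 in place of 20 for dependent over non-dependent). Leaving out the mouse whose libraries did not correlate left 16 genes lower (-4.19 to -2.92) and 5 called in the batch test. Leaving out batches was not run for the batch test. Adding the counts of the nuclear copies to their genes was chosen after seeing the data. Depth limits the tRNAs other than mt-Tp, and mt-Atp8 and mt-Nd4l in IP.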
